A study of Homo sapiens with 6 samples.

Results

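The genes described here encode the proteasome, the protease that degrades ubiquitin-tagged proteins, and they were compared between STIL-knockdown EJ cells and their controls. Members were taken by symbol from the log2 CPM tables (read counts scaled to the depth of the library, on the log2 scale): every gene whose symbol begins with PSMA, PSMB, PSMC, PSMD, PSME, PSMF or PSMG, and POMP. PSMB8 and PSMB9 were left out. The rule found 47 of the 15953 genes, of which 45 encode components of the proteasome, its activators or its chaperones. The other two, PSMC3IP and PSME3IP1, matched by symbol only. The 45 components were grouped into 7 alpha and 8 beta subunits of the 20S core, 9 subunits of the 19S base, 8 subunits of the 19S lid, 5 activators and inhibitors, 5 chaperones of 20S assembly and 3 chaperones of 19S base assembly.

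EJ is an established human bladder cancer cell line. RNA-seq was conducted on 3 libraries of EJ cells with stable lentiviral knockdown of STIL (shSTIL) and 3 libraries of EJ cells with the control vector (shNC). STIL is a scaffold protein of centriole duplication. The study asked how loss of STIL acts on primary cilia, on proliferation and on the stability of AURKA, a kinase that the proteasome degrades. It also assayed the proteasome, and reports higher activity in STIL-depleted EJ cells and lower activity in cells overexpressing STIL. The values given here are mRNA levels and do not measure that activity. The sample labels and the methods name the groups by short hairpin RNA, whereas the series' design line and the headings of the tables name them by siRNA, and the libraries were assigned by the sample labels. The labels state neither whether the libraries of a group came from separate cultures nor how many clones or hairpins the stable lines hold, so the P-values measure the spread between these libraries only.

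As background, the 20S core is a barrel of stacked rings: the outer rings are built from alpha subunits, which gate the entry, and the inner rings from beta subunits, some of which hold the cleaving sites. The 19S particle caps the barrel, with a base of ATPases that unfold the substrate and a lid that removes the ubiquitin chain. Cells assemble the particles with dedicated chaperones, and they raise the transcription of most subunit genes together through the factor NFE2L1 when proteasome activity is short.

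Promoter sequences are shown for 6 members, chosen by hand after their values were seen. PSMA2, PSMB3, PSMB2 and PSMD1 were among the members with the largest falls, and PSMC2 and PSME3 were higher in every shSTIL library. Other members at these ends are not shown: POMP fell more than PSMB2 and PSMD1, and PSMF1 rose more than PSMC2. The sequences are from RefSeq on GRCh38.p14, run 5′ to 3′ on the strand of the gene, and reach from 250 bases before to 50 bases after the annotated start. The windows are chr7:42932125-42932424 on the minus strand for PSMA2, chr17:38752491-38752790 on the plus strand for PSMB3, chr1:35641477-35641776 on the minus strand for PSMB2, chr2:231056617-231056916 on the plus strand for PSMD1, chr7:103347393-103347692 on the plus strand for PSMC2 and chr17:42833147-42833446 on the plus strand for PSME3. Capitals mark matches to any of 4 motifs, read on either strand: TGACNNNGC and TGAGNNNGC, the core of the antioxidant response element that NFE2L1 and NFE2L2 bind; CCAAT, the box bound by NF-Y; and CCGGAAG, a core of ETS factor sites.
PSMA2: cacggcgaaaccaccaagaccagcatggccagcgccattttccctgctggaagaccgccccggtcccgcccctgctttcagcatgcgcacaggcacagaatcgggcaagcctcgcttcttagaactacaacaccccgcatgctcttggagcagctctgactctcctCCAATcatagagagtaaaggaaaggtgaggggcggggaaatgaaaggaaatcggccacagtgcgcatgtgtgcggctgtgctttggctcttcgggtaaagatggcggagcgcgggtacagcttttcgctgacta
PSMB3: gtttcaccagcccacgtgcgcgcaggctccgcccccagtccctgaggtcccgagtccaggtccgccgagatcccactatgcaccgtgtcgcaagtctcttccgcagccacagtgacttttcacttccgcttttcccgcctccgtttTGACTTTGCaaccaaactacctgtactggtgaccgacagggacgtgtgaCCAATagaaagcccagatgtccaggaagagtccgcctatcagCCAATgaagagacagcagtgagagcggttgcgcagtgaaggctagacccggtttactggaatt
PSMB2: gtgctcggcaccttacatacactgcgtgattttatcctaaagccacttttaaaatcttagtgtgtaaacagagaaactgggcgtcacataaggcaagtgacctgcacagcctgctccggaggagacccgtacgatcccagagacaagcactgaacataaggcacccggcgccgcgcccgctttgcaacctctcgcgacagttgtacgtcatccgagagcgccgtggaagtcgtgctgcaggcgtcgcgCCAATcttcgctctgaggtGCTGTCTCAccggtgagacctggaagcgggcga
PSMD1: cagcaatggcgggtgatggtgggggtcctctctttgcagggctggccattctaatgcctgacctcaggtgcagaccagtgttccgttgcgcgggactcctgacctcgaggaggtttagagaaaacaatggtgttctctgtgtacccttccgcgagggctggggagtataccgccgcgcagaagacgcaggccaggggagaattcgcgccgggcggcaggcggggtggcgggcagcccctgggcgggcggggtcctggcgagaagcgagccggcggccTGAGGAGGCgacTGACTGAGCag
PSMC2: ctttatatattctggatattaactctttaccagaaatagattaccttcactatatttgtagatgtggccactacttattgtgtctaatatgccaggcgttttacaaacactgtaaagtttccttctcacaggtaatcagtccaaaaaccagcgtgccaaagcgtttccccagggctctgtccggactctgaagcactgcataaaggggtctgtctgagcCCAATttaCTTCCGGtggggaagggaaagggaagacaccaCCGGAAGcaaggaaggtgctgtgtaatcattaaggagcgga
PSME3: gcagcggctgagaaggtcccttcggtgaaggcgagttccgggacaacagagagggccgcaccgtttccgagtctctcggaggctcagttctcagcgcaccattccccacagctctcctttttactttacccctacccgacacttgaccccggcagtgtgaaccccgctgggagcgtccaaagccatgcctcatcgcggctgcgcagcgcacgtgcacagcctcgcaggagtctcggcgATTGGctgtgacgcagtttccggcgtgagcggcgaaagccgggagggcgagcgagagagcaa
The windows of PSMB3 and PSMD1 held TGACNNNGC, and those of PSMB2 and PSMD1 held TGAGNNNGC, in PSMB2 on the minus strand. PSMA2, PSMB2, PSMB3 (at 2 places), PSMC2 and PSME3 held CCAAT, and PSMC2 held CCGGAAG once on each strand. In the PSME3 window CCAAT lies on the minus strand and therefore reads ATTGG.

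The depth, recovered from the spacing of low log2 CPM values, was 16214800 to 16431200 reads in the shNC libraries and 16734500 to 16901600 in the shSTIL libraries. The log2 CPM of STIL, the targeted gene, was 5.98, 6.10 and 6.01 in the shNC libraries and 4.05, 4.06 and 4.01 in the shSTIL libraries, so 25.2% of the control level was left. The epithelial keratins KRT8 and KRT18 and the mesenchymal marker VIM were highly expressed, with a control mean log2 CPM of 8.56, 9.32 and 10.52. Other markers of these kinds varied, and the basal urothelial markers KRT5 and TP63 had at most 1 and 14 reads in any library. The control means of the epithelial KRT7 and EPCAM were 6.50 and 0.16. The control means of the mesenchymal FN1 and CDH2 were 6.44 and 1.65. Those of the epithelial adhesion gene CDH1 and of the urothelial markers UPK2 and GATA3 were -2.06, -1.90 and -0.71, from at most 9 reads in any library, whereas the urothelial marker PPARG was at 4.28, and UPK1A and UPK1B were at 1.02 and 0.26, from 13 to 33 reads in the shNC libraries. Some markers moved with the groups, with a log2 fold change of -0.70 for KRT8, -0.68 for VIM, -1.19 for the matrix gene FN1, -1.12 for UPK1B, 0.49 for the epithelial keratin KRT7 and 0.26 for PPARG (all DEGs), and their part in the results was not tested. CD14, PECAM1 and VWF, markers of leukocytes and endothelium, had at most 7 reads in any library. The fibroblast marker COL1A1 had more, with 38 to 59 reads in the shNC libraries and 21 to 32 in the shSTIL libraries. COL1A1 was also a lower DEG, at -0.96 on the log2 scale, and its part in the results was not tested either. These are bulk libraries, in which fewer cells of a state and less RNA per cell cannot be told apart.

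Most proteasome genes were lower in STIL-knockdown cells. With an adjusted p under 0.01 (limma over all genes, Benjamini-Hochberg), 31 of the 47 members were lower DEGs, 2 were higher DEGs and 14 were not called. Among all 15953 genes, 23.6% were lower DEGs, 23.5% higher DEGs and 47.1% DEGs in either direction. The lowest mean log2 CPM of the 47 members was 3.88, and among the 11319 genes averaging a log2 CPM of at least 1 the shares were 31.4%, 30.5% and 61.9%. The share of members called lower, 66.0%, was therefore above the background at either level, and that of members called higher was below it.

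For 42 members the groups were separate: 35 were lower in every shSTIL library than in every shNC library and 7 were higher. Of all genes, 30.5% were lower and 29.9% higher without overlap (60.3% in all), and of genes averaging a log2 CPM of at least 1, 38.5% were lower and 37.2% higher (75.7% in all). For each such gene the two-sided exact permutation test, which has 20 labellings of the libraries, reached its smallest possible p of 0.1. The median log2 fold change of the members was -0.24, with a range of -1.45 to 0.17, whereas the median of all genes was 0.01. Of the 31 lower members, 17 were still called lower under all 17 other settings of the analysis, and neither of the 2 higher members was still called under all of them.

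**Figure D1:**
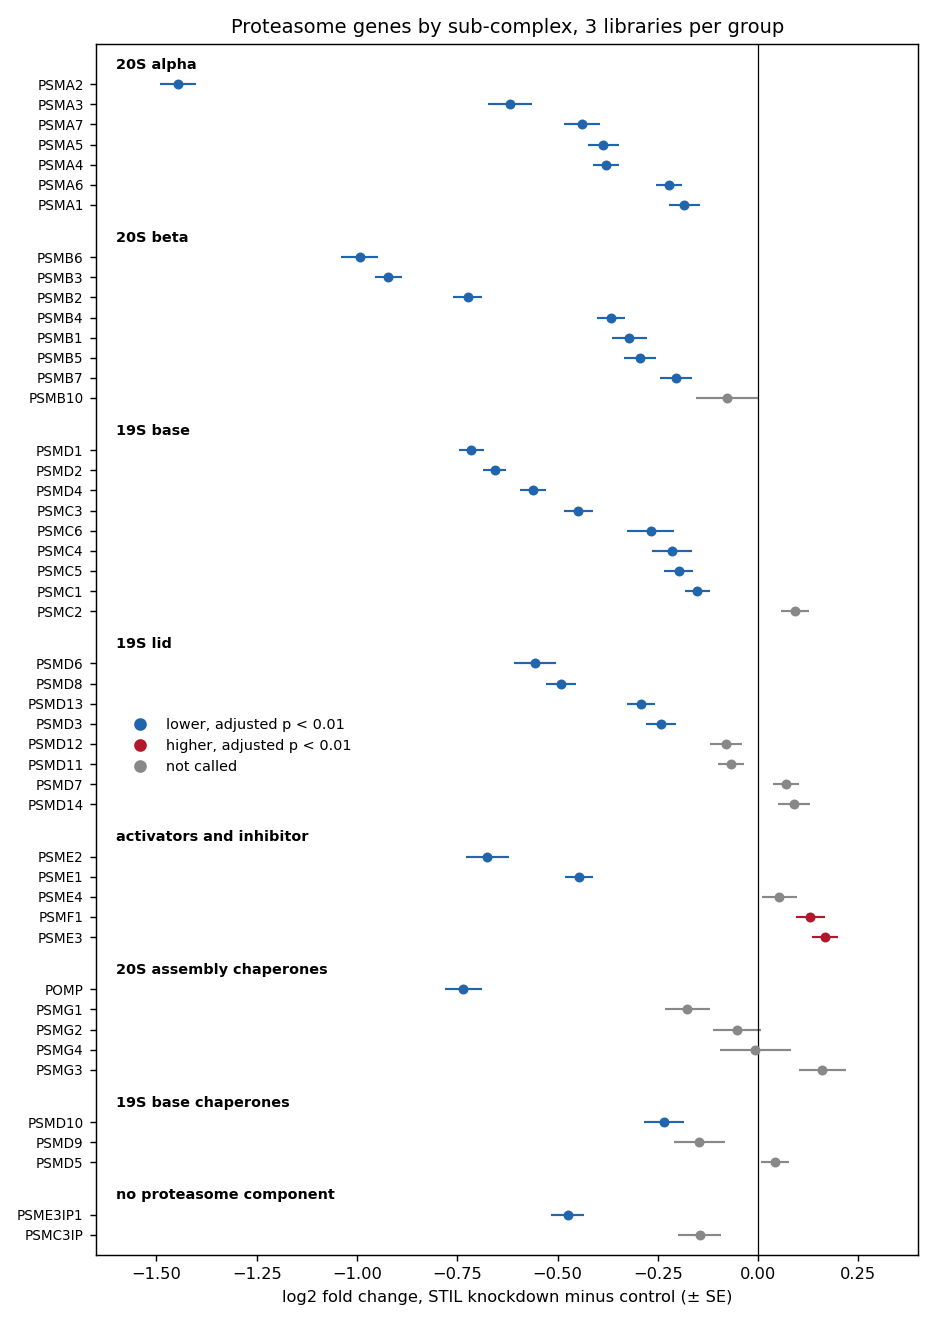
Log2 fold change (STIL knockdown minus control, horizontal axis) of the 47 members, grouped by sub-complex, with bars of 1 standard error (3 libraries per group). The 14 constitutive core subunits all lie below 0, from -1.45 for PSMA2 to -0.18 for PSMA1, whereas the activators lie on either side of 0.

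**Figure D2:**
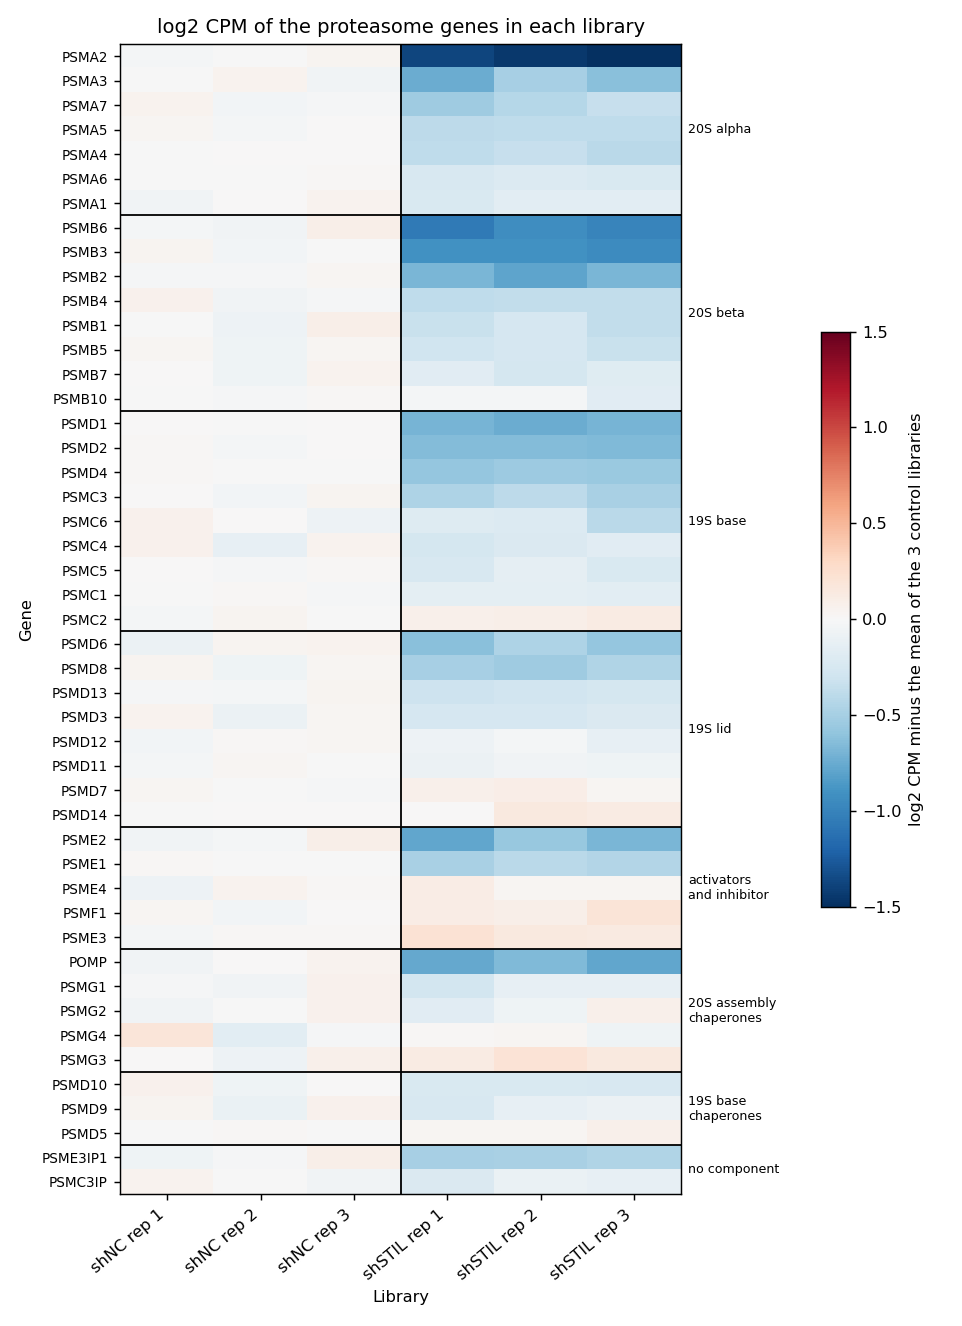
Log2 CPM of each of the 47 members in each of the 6 libraries, as the difference from the mean of the 3 shNC libraries (colour, log2 units). The 3 STIL-knockdown columns carry the same pattern: PSMA2, PSMB6 and PSMB3 are darkest blue in each of them, and the control columns are pale throughout.

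The alpha subunits, which form the outer rings, all fell: 7 of 7 were lower DEGs, with a median log2 fold change of -0.39. PSMA2 fell most of all members. PSMA2 lies at chr7:42916857-42932223 (GRCh38, minus strand). On the log2 CPM scale it was at 6.44, 6.46 and 6.51 in the shNC libraries and 5.09, 5.01 and 4.96 in the shSTIL libraries, from 1387 to 1446 and from 527 to 579 reads. The nearest values of the groups lay 1.35 apart, with no library between them. This was a log2 fold change of -1.45 (SE 0.05, limma adjusted p = 2.83e-11), which left 36.7% of the control level, and PSMA2 ranked 165 of the 15953 genes by log2 fold change from the lowest. Exons of PSMA2 overlap those of MRPL32 on the opposite strand, whose own log2 fold change was -0.28, and the strandedness of the libraries is not given in the sources used here. The difference in CPM was -56.0 for PSMA2 and -4.84 for MRPL32.

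PSMA1, the alpha subunit with the smallest fall, had a log2 CPM of 6.91, 6.97 and 7.01 in the shNC libraries and 6.73, 6.80 and 6.80 in the shSTIL libraries. The groups did not overlap, but they lay closer together than for any other alpha subunit. Its log2 fold change was -0.18 (SE 0.04, limma adjusted p = 9.62e-04), and the call was lost without any one library other than shNC replicate 1 (adjusted p up to 0.0222). The log2 fold changes of PSMA3, PSMA7, PSMA5, PSMA4 and PSMA6 were -0.62, -0.44, -0.39, -0.38 and -0.22. All of them are structural subunits without a cleaving site, and all were called.

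Among the beta subunits, 7 of 8 were lower DEGs, with a median log2 fold change of -0.34, and the exception was PSMB10. PSMB6, the subunit with the caspase-like cleaving site, fell furthest. PSMB6 lies at chr17:4796144-4798503 (GRCh38, plus strand). It had a log2 CPM of 7.02, 6.99 and 7.13 in the shNC libraries and 5.98, 6.12 and 6.06 in the shSTIL libraries. The highest STIL-knockdown value lay 0.87 from the lowest control value. Between the groups the log2 fold change was -0.99 (SE 0.05, limma adjusted p = 1e-09), which left 50.2% of the control level.

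The other catalytic subunits had log2 fold changes nearer to 0. PSMB5, which holds the chymotrypsin-like site and is the main target of proteasome inhibitor drugs, had a log2 CPM of 6.76, 6.67 and 6.75 in the shNC libraries and 6.43, 6.48 and 6.39 in the shSTIL libraries. For PSMB7, the trypsin-like subunit, the values were 7.05, 6.98 and 7.09 in the shNC libraries and 6.87, 6.77 and 6.86 in the shSTIL libraries. Neither gene overlapped between the groups. The log2 fold change of PSMB5 was -0.29 (SE 0.04, limma adjusted p = 2.39e-05) and that of PSMB7 was -0.20 (SE 0.04, limma adjusted p = 6.99e-04). PSMB7 lost its call without any one library other than shNC replicate 2, with an adjusted p of up to 0.0283.

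The order of the catalytic subunits differed between the groups. Per kilobase of transcript, the CPM of PSMB6, PSMB7 and PSMB5 was 155 ± 8.04, 134 ± 5.45 and 81.7 ± 2.86 in the shNC libraries (SD, n = 3) and 77.9 ± 3.73, 116 ± 4.5 and 66.6 ± 2.09 in the shSTIL libraries. By this measure PSMB6 was the highest of the 3 in control cells, and PSMB7 was in STIL-knockdown cells. The lead of PSMB6 in control cells rests on the transcripts taken, of 852 bases for PSMB6 and 980 for PSMB7. Before division by length, their mean control CPM was nearly equal, at 132 and 131. As a level difference within each library, chosen after the values were seen, PSMB6 minus PSMB7 on the log2 CPM scale was -0.02, 0.01 and 0.04 in the shNC libraries and -0.89, -0.65 and -0.80 in the shSTIL libraries. PSMB6 minus PSMB5 was 0.26, 0.32 and 0.38, and -0.45, -0.36 and -0.32, in the same order of libraries. In contrast, PSMB7 minus PSMB5 overlapped between the groups, at 0.29, 0.31 and 0.34 in the shNC libraries and 0.44, 0.29 and 0.47 in the shSTIL libraries.

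PSMB10, the immunoproteasome counterpart of PSMB7, was the only member of the core that was not called. It was also the least expressed member, with a log2 CPM of 3.91, 3.90 and 3.93 in the shNC libraries and 3.89, 3.88 and 3.74 in the shSTIL libraries. The groups did not overlap, but their nearest values were 0.01 apart. In limma the log2 fold change was -0.08 (SE 0.08, limma adjusted p = 0.43). Per kilobase its CPM was 12.3 ± 0.12 in the shNC libraries, against 134 ± 5.45 for PSMB7 (SD, n = 3). The other immunoproteasome subunits, PSMB8 and PSMB9, which the rule leaves out, had a log2 fold change of -0.26 and -0.48. Both were lower DEGs (limma adjusted p = 0.00126 and 0.00686).

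The structural beta subunits PSMB3, PSMB2, PSMB4 and PSMB1 had log2 fold changes of -0.92, -0.72, -0.37 and -0.32, and all were called. PSMB3, described after its value was seen, had a log2 CPM of 7.47, 7.39 and 7.42 in the shNC libraries and 6.52, 6.52 and 6.48 in the shSTIL libraries (limma adjusted p = 1.31e-10). The nearest values of the groups were 0.87 apart, as for PSMB6. PSMB1 lost its call without shNC replicate 1, shSTIL replicate 1 or shSTIL replicate 3 (adjusted p up to 0.0139).

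The core subunits are present in equal number in the particle, but their mRNA levels were unequal in both groups. Over the 14 constitutive subunits (without PSMB10), the highest CPM per kilobase was 12.0 to 12.3 times the lowest in the shNC libraries and 11.0 to 12.4 times in the shSTIL libraries. The coefficient of variation over the 14 genes was 59.3% to 62.2% and 62.5% to 64.3%. PSMA5 was lowest in all 6 libraries, and PSMA7 was highest in 5, with PSMB4 above it in shSTIL replicate 1. These levels depend on the transcript taken for each gene, here the longest principal coding transcript of GENCODE 29.

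In the 19S base, 8 of 9 members were lower DEGs, with a median log2 fold change of -0.27. PSMD1, a large scaffold subunit, fell furthest. PSMD1 lies at chr2:231056864-231172827 (GRCh38, plus strand). Its level was 7.69, 7.68 and 7.69 in the shNC libraries and 6.98, 6.94 and 6.99 in the shSTIL libraries, on the log2 CPM scale. Within each group the libraries differed by at most 0.05, and the groups lay 0.69 apart. The difference of the means, as a log2 fold change, was -0.72 (SE 0.03, limma adjusted p = 5.03e-10).

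The other large scaffold, PSMD2, and the ubiquitin receptor PSMD4 had log2 fold changes of -0.66 and -0.56. These 3 non-ATPase subunits had lower log2 fold changes than any of the 6 ATPases, which unfold the substrate and feed it into the core. The log2 fold changes of the ATPases PSMC3, PSMC6, PSMC4, PSMC5 and PSMC1 were -0.45, -0.27, -0.21, -0.20 and -0.15, and all of these were called. Except for PSMC3, these calls depended on the setting. PSMC6 lost its call without any one library (adjusted p up to 0.0578), PSMC4 without any other than shNC replicate 2 (up to 0.081) and PSMC5 without any other than shSTIL replicate 2 (up to 0.0179), while PSMC1 kept it without each library but lost it under median centring.

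PSMC2 was the base member that was not lower. This ATPase had a log2 CPM of 6.61, 6.68 and 6.63 in the shNC libraries and 6.71, 6.73 and 6.76 in the shSTIL libraries. Every STIL-knockdown value was above every control value, by 0.03 at the narrowest point. Its log2 fold change was 0.09 (SE 0.03), which was not called (limma adjusted p = 0.0374). Under median centring it was called higher (limma adjusted p = 0.00513). PSMC2 minus PSMC3, a pair chosen after the values were seen, was -0.50, -0.39 and -0.51 log2 units in the shNC libraries and 0.07, 0.01 and 0.14 in the shSTIL libraries, and the groups did not overlap.

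The 19S lid was divided, with 4 of 8 members lower, 4 not called and a median log2 fold change of -0.16. The lid subunit SEM1, a lower DEG with a log2 fold change of -0.44, is not taken by the rule and is not counted here. PSMD6, a structural subunit, fell furthest, and lies at chr3:64010549-64024010 (GRCh38, minus strand). Control libraries had a log2 CPM of 6.03, 6.16 and 6.16 for this gene, and shSTIL libraries had 5.49, 5.65 and 5.53. The groups lay 0.38 apart, with a spread of 0.13 within the control and 0.16 within the shSTIL libraries. This was a log2 fold change of -0.56 (SE 0.05, limma adjusted p = 8.17e-07). The structural subunits PSMD8, PSMD13 and PSMD3 had log2 fold changes of -0.49, -0.29 and -0.24 and were called, the last of them not without shNC replicate 3 or any one shSTIL library (adjusted p up to 0.0171).

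PSMD14, the deubiquitinase that cleaves the chain from the substrate, had the highest log2 fold change of the lid. It had a log2 CPM of 6.78, 6.79 and 6.78 in the shNC libraries and 6.79, 6.92 and 6.91 in the shSTIL libraries. shSTIL replicate 1 lay at the control level and the other two lay above it. Between the groups the log2 fold change was 0.09 (SE 0.04, limma adjusted p = 0.0729), and it was called without shSTIL replicate 1 (adjusted p = 0.00466). PSMD7, the subunit that pairs with PSMD14 and has no active site, had a log2 fold change of 0.07, and those of PSMD11 and PSMD12 were -0.07 and -0.08. None of these 3 was called (limma adjusted p from 0.0809 to 0.103).

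Levels were also summed over each sub-complex. The summed CPM of the 14 constitutive core subunits was 1999, 1938 and 2011 in the shNC libraries and 1391, 1424 and 1415 in the shSTIL libraries, so 71.1% of the control sum was left. It was 75.3% for the base, 87.2% for the lid, 84.1% for the 20S chaperones, 95.8% for the base chaperones and 97.5% for the activators and inhibitor. For all 47 members it was 80.1%, from 5784 ± 89.6 to 4634 ± 44.7 CPM (SD, n = 3). The same sum over all genes was 97.0%, since the library scaling factors behind the tables were 0.981 to 0.992 in the shNC libraries and 1.01 to 1.02 in the shSTIL libraries. No test was run on these sums, because the members were chosen with earlier results of these data known.

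The sums also differed relative to each other. The summed CPM of the constitutive core divided by that of the 19S base and lid was 0.787, 0.783 and 0.792 in the shNC libraries and 0.691, 0.694 and 0.696 in the shSTIL libraries. For the base divided by the lid, the ratio was 1.205, 1.208 and 1.196 in the shNC libraries and 1.047, 1.041 and 1.029 in the shSTIL libraries. Both ratios were lower in every shSTIL library than in every shNC library. A ratio within a library is not moved by the scaling between libraries, and it depends on which genes were put in each group. The 19S subunits SEM1 and ADRM1, which the rule does not take, are in none of these sums.

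**Figure D3:**
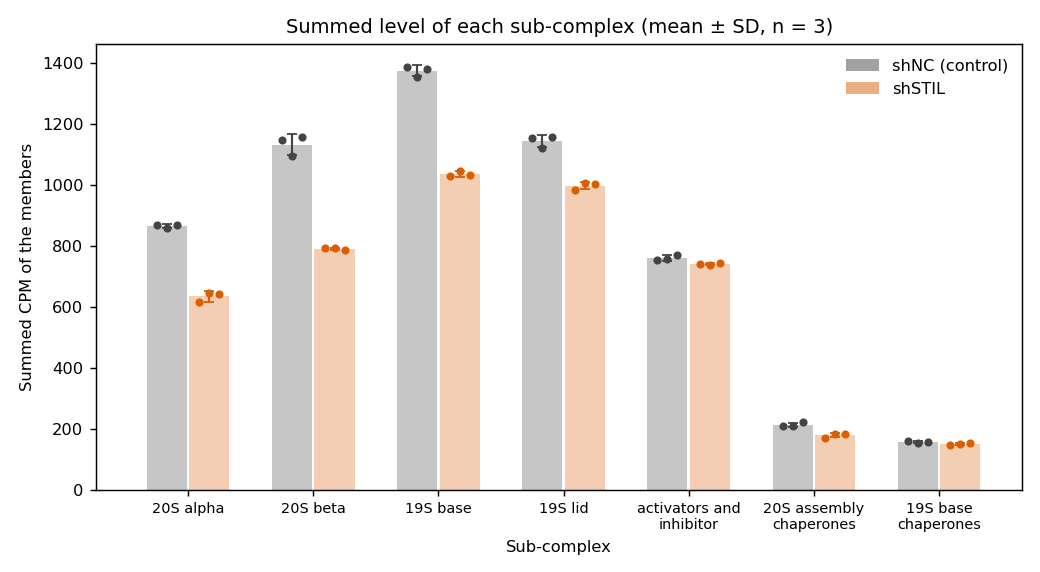
Summed CPM (vertical axis, from 0) of the members of each sub-complex in the control and shSTIL libraries, as the mean with a bar of 1 SD and a point for each of the 3 libraries per group. The groups are far apart for the core and the base, closer for the lid, and close together for the activators and inhibitor, at 97.5% of the control sum.

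The activators, which bind the ends of the core in place of the 19S particle, moved in opposite directions. PSME1 and PSME2, which form the interferon-inducible activator ring together, both fell. PSME1 lies at chr14:24136158-24138967 (GRCh38, plus strand), and PSME2 lies near it, at chr14:24143362-24147570 (minus strand). PSME1 had a log2 CPM of 6.96, 6.94 and 6.94 in the shNC libraries and 6.46, 6.55 and 6.50 in the shSTIL libraries, and PSME2 had 6.62, 6.65 and 6.76, and 5.90, 6.12 and 5.99. The nearest values of the groups were 0.39 apart for PSME1 and 0.51 apart for PSME2. In limma the log2 fold change was -0.45 for PSME1 (SE 0.04, limma adjusted p = 1.51e-07) and -0.68 for PSME2 (SE 0.05, limma adjusted p = 1.77e-07).

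PSME3, which forms the nuclear activator ring, rose. PSME3 lies at chr17:42824385-42843758 (GRCh38, plus strand). Its values were 7.81, 7.85 and 7.85 in the shNC libraries and 8.05, 7.98 and 7.97 in the shSTIL libraries (log2 CPM). The groups did not overlap, with shSTIL replicate 1 above the other two. The difference of the means, as a log2 fold change, was 0.17 (SE 0.03, limma adjusted p = 5.98e-04), or 112% of the control level, and the call was lost without any one shNC library or shSTIL replicate 2 (adjusted p up to 0.0119). Its exons overlap those of BECN1 on the opposite strand, which had a log2 fold change of 0.21, and the part of that overlap in the value of PSME3 was not tested.

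PSME3 minus PSME2, a pair chosen after the values were seen, was 1.183, 1.199 and 1.088 log2 units in the shNC libraries and 2.15, 1.87 and 1.98 in the shSTIL libraries. Per kilobase of transcript, the CPM of PSME3, PSME1 and PSME2 was 229 ± 4.08, 123 ± 1.1 and 73.0 ± 3.82 in the shNC libraries and 257 ± 7.58, 90.0 ± 2.77 and 45.7 ± 3.40 in the shSTIL libraries (SD, n = 3). The order of the 3 was the same in both groups, and PSME3 stood further above the others in STIL-knockdown cells. As for the core, the order depends on the transcript taken for each gene. Its length here was 998 bases for PSME3, 1006 for PSME1 and 1404 for PSME2. PSME4, the large nuclear activator, had a log2 fold change of 0.05 and overlapping groups (limma adjusted p = 0.321).

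PSMF1, a protein that binds the core and can inhibit it, was the other higher DEG. It had a log2 CPM of 7.80, 7.73 and 7.78 in the shNC libraries and 7.88, 7.86 and 7.97 in the shSTIL libraries. shSTIL replicate 3 was highest, and the nearest values of the groups were 0.06 apart. This was a log2 fold change of 0.13 (SE 0.04, limma adjusted p = 0.0069), and the call was lost without any one of the 6 libraries (adjusted p up to 0.0666).

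Of the 5 chaperones of core assembly, POMP was the only one that limma called. POMP, which joins the core while it is built and is degraded once it matures, lies at chr13:28659104-28678925 (GRCh38, plus strand). It had a log2 CPM of 6.18, 6.24 and 6.29 in the shNC libraries and 5.47, 5.57 and 5.46 in the shSTIL libraries. The nearest values of the groups were 0.60 apart. Between the groups the log2 fold change was -0.73 (SE 0.05, limma adjusted p = 1.74e-08), which left 60.1% of the control level, and it was called under all 17 other settings.

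The other 4 are the partners that build the alpha ring, PSMG1 with PSMG2 and PSMG3 with PSMG4. PSMG3 had the highest log2 fold change of these, with a log2 CPM of 4.66, 4.58 and 4.74 in the shNC libraries and 4.79, 4.87 and 4.81 in the shSTIL libraries. The groups did not overlap, and the nearest values were 0.05 apart. Its log2 fold change was 0.16 (SE 0.06, limma adjusted p = 0.0343), and those of PSMG1, PSMG2 and PSMG4 were -0.18, -0.05 and -0.01 (limma adjusted p of 0.0157, 0.497 and 0.964). PSMG1 was called lower by edgeR, in the limma fit of genes averaging a log2 CPM of at least 1 and with the length and GC content trends removed (adjusted p down to 0.00675). The groups overlapped for PSMG2 and PSMG4, and the sign of PSMG4 turned with the scaling, to 0.04 under median centring. Exons of PSMG2 overlap those of SPIRE1, whose log2 fold change was 0.78.

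Among the chaperones of the 19S base, which hold the ATPases before they join, PSMD10 was called and PSMD9 and PSMD5 were not. PSMD10, also known as the oncoprotein gankyrin, had a log2 CPM of 5.39, 5.26 and 5.33 in the shNC libraries and 5.10, 5.09 and 5.08 in the shSTIL libraries. The STIL-knockdown values spanned 0.01 and all lay below the controls. In limma the log2 fold change was -0.24 (SE 0.05, limma adjusted p = 0.00118), and the call was lost without shNC replicate 3 or any one shSTIL library (adjusted p up to 0.0179). PSMD5 had a log2 CPM of 6.41, 6.43 and 6.40 in the shNC libraries and 6.45, 6.44 and 6.49 in the shSTIL libraries, and its fold change of 0.04 on the log2 scale was not called (limma adjusted p = 0.323). PSMD9 had a log2 fold change of -0.15 with overlapping groups (limma adjusted p = 0.0653).

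**Figure D4:**
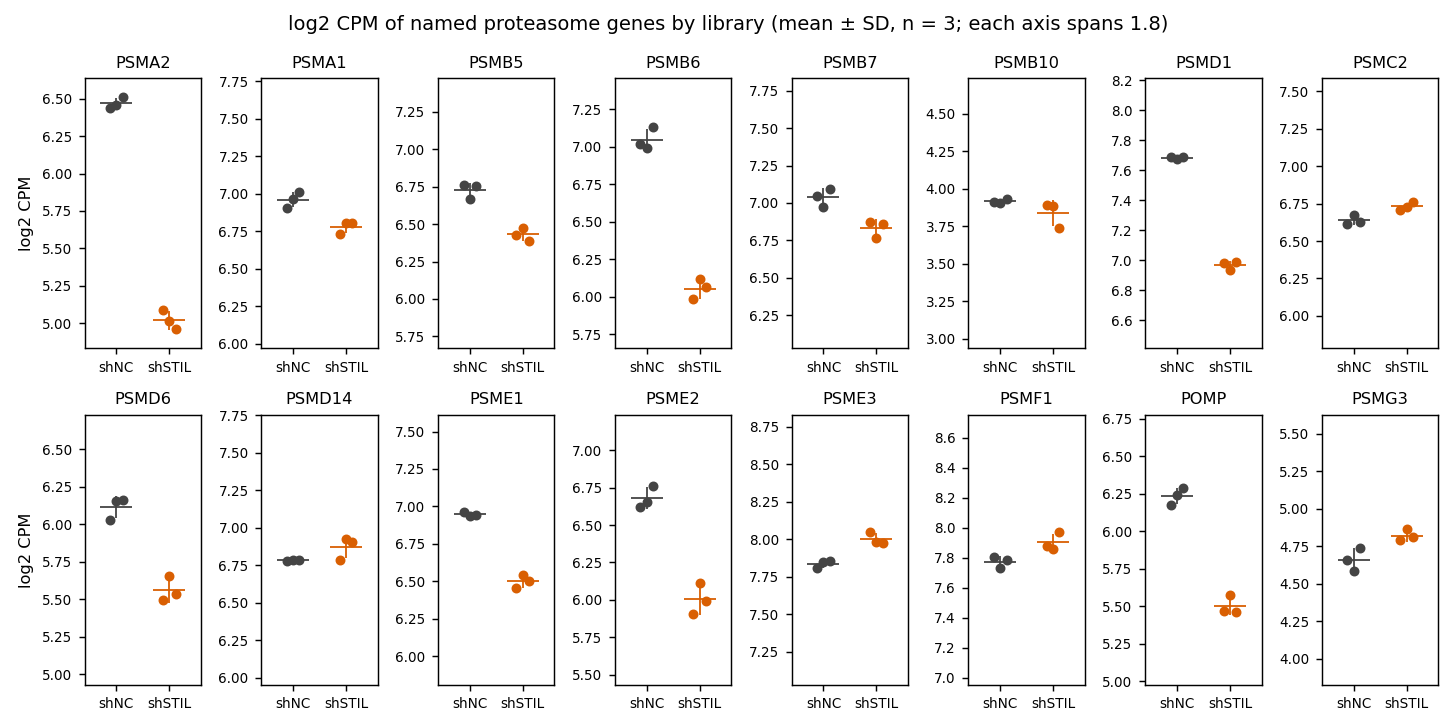
Log2 CPM of 16 members in each library (points), with the mean and 1 SD of the 3 libraries per group; every vertical axis spans 1.8 log2 units, so distances can be compared between panels. PSMA2 shows the widest gap between the groups, from 6.47 to 5.02 on average, whereas PSMB10, PSMC2 and PSMD14 show gaps of under 0.1.

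The members that are no proteasome component were also lower in every shSTIL library. PSME3IP1, a nuclear protein that binds the PSME3 ring, had a log2 CPM of 6.65, 6.69 and 6.79 in the shNC libraries and 6.22, 6.23 and 6.27 in the shSTIL libraries. Its log2 fold change was -0.47 (SE 0.04, limma adjusted p = 4.15e-07), against 0.17 for PSME3 itself. PSMC3IP, a homologous recombination factor, had 5.19, 5.13 and 5.09, and 4.92, 5.03 and 5.01. Its log2 fold change of -0.15 was not called (limma adjusted p = 0.0339). Leaving out these genes, 30 of the 45 components were lower DEGs and 2 were higher.

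Beside the members, 27 genes that act with the proteasome (receptors, deubiquitinases, shuttles, ubiquitin pathway genes and the regulators of subunit transcription) were listed. Of these, 13 were lower DEGs, 8 were higher DEGs and 6 were not called, with a median log2 fold change of -0.15. Without overlap between the groups, 14 were lower and 9 higher. Of all genes averaging a log2 CPM of at least 1, as these 27 do, 31.4% were lower DEGs and 30.5% higher DEGs, and 38.5% were lower and 37.2% higher without overlap. The share of lower DEGs was 48.1% for the list and 66.7% for the components, and the higher DEGs of the list were near the background share.

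Of the 19S subunits, docked enzymes and chaperones USP14, UCHL5, SEM1, PAAF1 and ADRM1, all but ADRM1 were lower DEGs. USP14, a deubiquitinase docked on the base, had the lowest log2 fold change of the list. It had a log2 CPM of 7.31, 7.37 and 7.37 in the shNC libraries and 6.42, 6.41 and 6.36 in the shSTIL libraries, so the nearest values of the groups were 0.89 apart. The difference of the means, as a log2 fold change, was -0.95 (SE 0.04, limma adjusted p = 1.08e-10). UCHL5, the other docked deubiquitinase, had -0.37 (limma adjusted p = 6.15e-05), and its docking partner ADRM1, a ubiquitin receptor, had -0.07 with overlapping groups (limma adjusted p = 0.215). SEM1, the smallest lid subunit, and PAAF1, a chaperone of the base, had -0.44 and -0.31 (limma adjusted p = 4.69e-05 and 0.00128). UCHL5 lost its call without shSTIL replicate 1 or 3 (adjusted p up to 0.0117), SEM1 without any one shSTIL library (up to 0.0192) and PAAF1 without any one library (up to 0.0259).

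The ubiquitin-activating enzyme UBA1, the ubiquitin gene UBB and the segregase VCP with its cofactor UFD1 were lower, with log2 fold changes of -0.90, -0.84, -0.64 and -0.48. NPLOC4, the other cofactor of VCP, and the shuttles RAD23B and UBQLN1 had 0.07, 0.01 and -0.05 and were not called (limma adjusted p of 0.0735, 0.789 and 0.355). ECPAS, a scaffold that binds the proteasome, and UBE3C, a ubiquitin ligase that extends chains on it, had 0.44 and 0.35 and were higher DEGs.

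The factor that raises subunit transcription was itself higher. NFE2L1 had a log2 CPM of 8.42, 8.43 and 8.46 in the shNC libraries and 8.58, 8.59 and 8.56 in the shSTIL libraries, with no overlap. Its log2 fold change was 0.14 (SE 0.03, limma adjusted p = 8.56e-04), or 110% of the control level. The call was lost without the mean-variance trend of the fit (adjusted p = 0.0197) and when limma tested against a fold of 1.2. DDI2, the protease that cleaves the NFE2L1 protein into its active form, had the highest log2 fold change of these 27 genes, with a log2 CPM of 4.97, 4.97 and 5.05, and 5.63, 5.57 and 5.41, for a fold change of 0.54 on the log2 scale (limma adjusted p = 4.25e-06). NGLY1, which removes the glycans of NFE2L1, had 0.32 (limma adjusted p = 7.47e-05), and its call was also lost against a fold of 1.2 (limma adjusted p = 0.359). These genes were higher DEGs while 14 of 14 constitutive core genes were lower DEGs, and the activity of NFE2L1 was not measured here. NFE2L2, the related factor of the antioxidant response, had -0.25 (limma adjusted p = 4.32e-05).

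**Figure D5:**
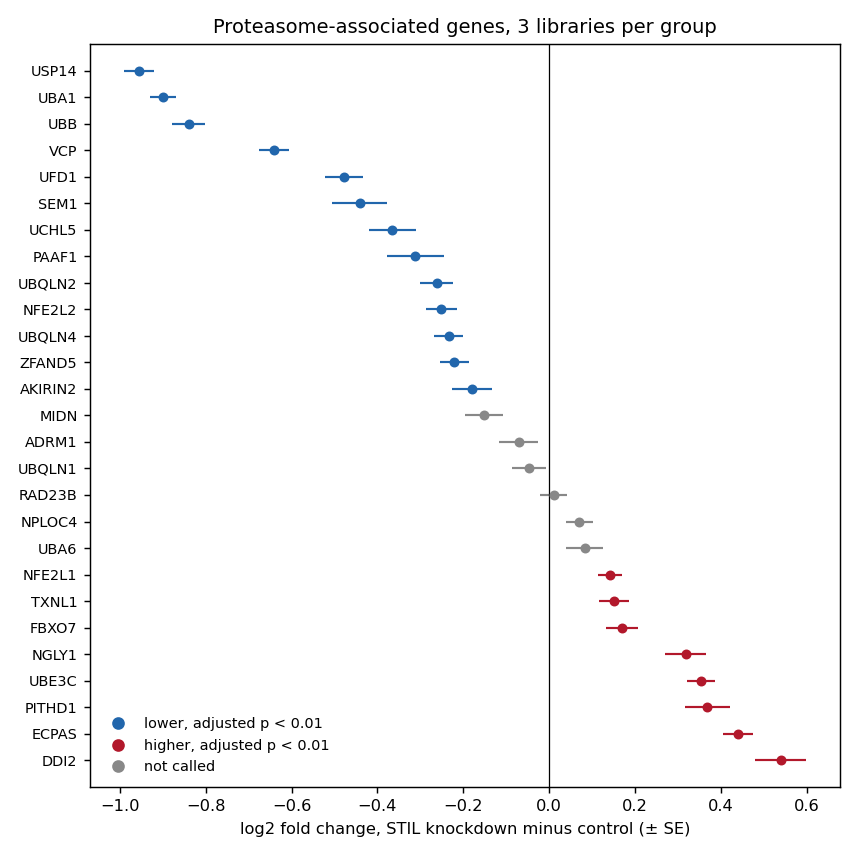
Log2 fold change (STIL knockdown minus control, horizontal axis) of the 27 proteasome-associated genes with bars of 1 standard error (3 libraries per group). The genes run from -0.95 for USP14 to 0.54 for DDI2, with 13 lower DEGs and 8 higher DEGs.

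Features that the rule did not use were then described for the members. Of the 47 members, 41 were found in the RefSeq promoter table, in which PSMB6 and 5 others have no entry. TGACNNNGC was found in 14 of the 41 members, against 18.7% of the 12621 matched genes of the tables and 13.3% of all 35116 windows. It was found in 8 of the 26 matched members that were lower DEGs and in 6 of the other 15. For TGAGNNNGC the numbers were 13 of 41 members (8 of 26 lower, 5 of 15 others), 25.5% of genes and 18.3% of windows.

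CCAAT was present in 20 of 41 members (14 of 26 lower, 6 of 15 others), 42.7% of genes and 34.6% of windows, and CCGGAAG in 17 of 41 members (8 of 26 lower, 9 of 15 others), 19.4% of genes and 10.3% of windows. The sequences printed above show some of these cases. The window of PSMA2, the member that fell most, holds CCAAT and neither form of the antioxidant element, and the PSMC2 window holds CCAAT as well as CCGGAAG. None of the windows printed for lower members holds CCGGAAG, whereas POMP and other lower members hold it. Genes with more than 1 window (9 members) counted as holding a motif if any window did. A match of letters in this window is a description and no evidence of binding.

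Across the 45 components, which are not independent of each other, the log2 fold change had a Spearman correlation of -0.09 and a Pearson correlation of -0.09 with the mean log2 CPM, and -0.06 and 0.02 with the GC content of the transcript. With transcript length the values were 0.30 and 0.28, the shorter transcripts having the lower fold changes. Across 11268 genes with an annotated transcript and averaging a log2 CPM of at least 1, the Spearman correlations with level, GC content and length were 0.03, -0.13 and 0.14. With the trends on length and GC content removed from each library, a step added after the data were seen, 34 members were lower DEGs and 3 were higher, and PSMA2 was still called lower. Exons of 12 members overlap those of another gene of the tables on the opposite strand in GENCODE 29, among them PSMC5 with FTSJ3 and PSMD13 with SIRT3, which had log2 fold changes of -0.17 and -0.24. The reads were assigned to genes by RSEM, which divides reads between similar transcripts, and the part of processed pseudogenes of the proteasome genes in these values was not tested.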

How the data were processed

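RNA from 3 shNC and 3 shSTIL libraries of EJ cells was sequenced on a BGISEQ-500. The authors used SOAPnuke for read filtering, Bowtie2 for mapping to transcripts and RSEM for estimated counts per gene; versions, trimming settings and strandedness are not given in the sources used here, and the submitters' processing notes name hg38 and limma. The deposited estimated counts cover shNC replicate 1 and the 3 shSTIL libraries (15957 genes), and the deposited log2 CPM values, which the authors computed with edgeR, cover all 6 libraries (15953 genes). The log2 CPM rests on library scaling and a prior count of 2, so it understates changes of genes with few reads.

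Groups were compared with limma 3.58.1 (mean-variance trend, no replicate block) on the log2 CPM of all genes, with Benjamini-Hochberg adjustment and a threshold of 0.01, and single genes also with an exact two-sided permutation test. The deposited counts were not whole, unlike the design had assumed, and cover 1 control library, so reads were recovered from the log2 CPM. Of the recovered values of a library, 86.2% to 86.7% lay within 0.01 of a whole read, and the rest were not whole either. Where a library has deposited counts, no value was further than 0.052 reads from them. The recovered reads were rounded for edgeR 4.0.16 (quasi-likelihood) and DESeq2 1.42.0, which were run in R 4.3.3 as alternatives. Without rounding, they gave the CPM used for sums and levels per kilobase. The main limma fit, edgeR and DESeq2 were tested on simulated data, in which far fewer genes were changed than were called here. The other settings were not tested in this way.

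The members and lists were chosen with earlier results of these data known. Named genes were, in each sub-complex, the lowest and the highest by log2 fold change and any called against its median, then the catalytic subunits and PSMB10, members that are no component, and 7 associated genes with the lowest and highest of that list. Any other gene was named after its value was seen. Coordinates and transcripts are from GENCODE 29 (GRCh38). PSMA8 and PSMB11, testis and thymus subunits, and 7 of 26 cell type markers were not analysed here, and some genes of the associated list are not reported here.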

Additional observations from a re-analysis of the deposited data

How the results depend on the processing

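Counts of members called lower (31) stayed within 1.5 times under every alternative but one: they were 31 with DESeq2, quantile normalization or a prior count of 0.25, 32 with edgeR on the recovered reads or a fit of genes averaging a log2 CPM of at least 1, 30 with median centring, which shifts every log2 fold change by 0.043, 24 without the mean-variance trend, 33 at an adjusted p under 0.05, and 34 with the length and GC content trends removed. Tested against a fold of 1.2 with treat, 17 members were lower and 0 higher, 3317 genes were DEGs and 5 associated genes were lower. With each library left out in turn, 23 to 28 members were lower and the number of DEGs (7509) was 4900 to 5638, the lowest without shSTIL replicate 3, in fits of fewer samples. The count of members called higher (2) was 4 at an adjusted p under 0.05, 5 with median centring, 0 without the mean-variance trend and 0 to 2 without each library in turn. The call of PSME3 was kept without shSTIL replicate 1 or 3 alone, and that of PSMF1 was lost without each of the 6. The replicate numbers did not pair the libraries: same-numbered libraries deviated together with correlations of -0.121, -0.055 and -0.107. With a replicate block, 6898 genes were DEGs, 31 members were lower and 1 was higher, PSMF1 losing its call.

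Among the members and associated genes, signs turned only for genes that were not called. With the length and GC content trends removed, an alternative chosen after seeing the data, the log2 fold change was 0.053 for ADRM1, 0.016 for PSMB10, -0.033 for PSME4, 0.086 for PSMG4, -0.024 for RAD23B and -0.044 for UBA6. PSMG4 was 0.036 with median centring and 0.039 with quantile normalization. Without each library in turn it ranged from -0.088 to 0.084 for PSMG4, from -0.117 to 0.0060 for PSMG2 and from -0.00362 to 0.026 for RAD23B. The cause of these differences was not tested. With 3 libraries a group, a member that was not called is not shown to be unaffected.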

Other observations

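The remaining associated genes held calls in both directions. The shuttles UBQLN2 and UBQLN4, which carry ubiquitinated proteins to the base, had log2 fold changes of -0.26 and -0.23 and were lower DEGs. ZFAND5, which binds the 19S particle and stimulates degradation, had -0.22 and AKIRIN2, which brings proteasomes into the nucleus, had -0.18, and both were lower DEGs. PITHD1, TXNL1 and FBXO7, proteins that bind the proteasome or PSMF1, had 0.37, 0.15 and 0.17 and were higher DEGs. The limma call of AKIRIN2 was lost without any one library (adjusted p up to 0.0545), and those of PITHD1, TXNL1 and FBXO7 were lost without several of them taken singly (adjusted p up to 0.0126, 0.0114 and 0.0271). With the length and GC content trends removed, the log2 fold change of TXNL1 was 0.06 and was not called (limma adjusted p = 0.134).

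The ubiquitin gene UBB had a log2 CPM of 9.90 ± 0.06 in the shNC libraries and 9.06 ± 0.06 in the shSTIL libraries (SD, n = 3), and it was lower in every shSTIL library. The ubiquitin-activating enzymes were unlike each other: UBA1 was a lower DEG at -0.90, and UBA6 had 0.08 and overlapping groups (limma adjusted p = 0.123).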
